A study of Mus musculus with 3 samples.

Results

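The cells described here were Pdgfra-expressing stromal cells of mouse inguinal fat that carried transcripts of both *Fgf10*, the gene of a secreted fibroblast growth factor, and *Col18a1*, the gene of a basement membrane collagen. They were chosen by a rule on unique molecular identifiers (UMIs), each of which stands for a captured transcript. A member had at least 2000 UMIs with at most 10% of them in mitochondrial genes, at least 1 UMI of *Pdgfra*, at least 1 of *Fgf10* and at least 2 of *Col18a1*. It had at most 2 UMIs of *Pi16*, at most 1 each of *Ccn5*, *Gdf10*, *Crabp1* and *Top2a*, and none of *Epcam* or *Pecam1*, which keeps out cells marked by those genes. The rule was met by 1979 cells, of 23175 cells with a *Pdgfra* UMI and of 31905 barcodes that passed the limits on UMIs and mitochondrial share. Since these 10 genes chose the cells and every other gene was counted in the same cells, each difference between members and other cells is a description, with no test.

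The cells came from inguinal fat pads of mice 4 weeks old, digested with collagenase to give the stromal vascular fraction and sorted without CD45-positive leukocytes and dead cells, then captured with 10x Genomics 3′ chemistry. Each genotype was 1 library from pooled mice of both sexes. The wild-type library pooled 12 mice. The *Mgp*-KO library pooled 13 mice that lacked *Mgp* in every cell (B6.129S7-Mgptm1Kry/KbosJ), and the Pd-KO library pooled 11 mice in which floxed *Mgp* was deleted by a Pdgfra-cre transgene (C57BL/6-Tg (Pdgfra-cre)1Clc/J). In Pd-KO mice the deletion reaches only cells in which the *Pdgfra* promoter has driven Cre, and the wild-type library, which carries no floxed allele, was the comparison group here. *Mgp* encodes matrix Gla protein, a secreted protein of the extracellular matrix that binds bone morphogenetic proteins (BMPs). With 1 library per genotype no genotype difference has a replicate check, so no p-value is given, and the printed 95% intervals cover counting error only. Values given in threes are in the order wild-type, *Mgp*-KO and Pd-KO.

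The libraries differed in depth, header version and sex makeup as well as in genotype. The total was 184102026 UMIs in wild-type, 93212243 in *Mgp*-KO and 83942865 in Pd-KO. Members held a median of 16269, 8356 and 9067 UMIs and of 3765.5, 2921 and 3136.5 detected genes. The file headers name Cell Ranger 4 for wild-type and Cell Ranger 7.1.0 for both knockouts, and versions of that program differ in whether reads from introns are counted. Any comparison of a knockout with wild-type is therefore also a comparison of header versions, and these cannot be told apart. Of the barcodes that passed the limits, 40 were shared by wild-type and *Mgp*-KO, 37 by wild-type and Pd-KO and 35 by *Mgp*-KO and Pd-KO, at most 0.420% of the smaller library, and no member barcode was a member in another library. By UMIs of *Xist* and of Y-linked genes, 390, 419 and 237 members were called female and 317, 84 and 162 male, so the *Mgp*-KO members were mostly female, and several results between genotypes are also given for cells called female and male.

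*Fgf10* is made by mesenchymal cells and acts mainly on neighbouring cells through a splice form of the receptor *Fgfr2*, and it is known for its part in the growth of fat and of epithelial branches. Signalling through FGF receptors induces its own inhibitors of the Sprouty and Spred families. *Col18a1* encodes the chain of collagen XVIII, a proteoglycan of basement membranes whose C-terminal fragment is endostatin, and fat cells and their precursors surround themselves with such a membrane as they mature. *Fgf10* lies at chr13:118669791-118792115, plus strand (GRCm38), and *Col18a1* at chr10:77052178-77166548, minus strand. The other names given for these cells were *Itga2b* (chr11:102453297-102470122, minus strand), the αIIb integrin subunit best known from platelets, *Adam12* (chr7:133883199-134232146, minus strand), a membrane metalloprotease of mesenchymal cells, and *Bmper* (chr9:23223076-23485200, plus strand), a secreted BMP-binding protein.

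The gate genes set the scale of the description. *Fgf10* was at 346, 484 and 655 CPM (UMIs of the gene scaled to a common total) in members against 99.9, 83.9 and 99.8 CPM in the other *Pdgfra* cells, and 40, 82.2 and 176 CPM in the free RNA of barcodes with 10 to 100 UMIs. *Col18a1* was at 397, 559.7 and 545 CPM in members against 129, 87.7 and 72.7 CPM in the others. *Pdgfra* itself differed little, at 262, 373 and 468 CPM in members and 290.3, 384 and 357 CPM in the others. *Gm16263*, a non-coding gene that lies inside *Fgf10* on the opposite strand (chr13:118695292-118715396, minus strand), was at 14.1, 59.1 and 76.5 CPM against 5.25, 14.1 and 16.6 CPM. The sources used here do not state how strand was counted, so reads of *Gm16263* and of *Fgf10* cannot be told apart.

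The 3 given markers outside the gate were higher in members of every library. *Itga2b* was at 135, 105 and 108 CPM against 45.2, 30.1 and 27.4 CPM in the other *Pdgfra* cells, log2 ratios of 1.58, 1.80 and 1.98. *Adam12* was at 169.5, 1014 and 1076 CPM against 80.4, 266 and 185 CPM, and *Bmper* at 127, 594 and 708 CPM against 54, 175 and 151 CPM. For these markers the values went with the label, and genes particular to platelets were at or near 0 beside *Itga2b*. Of the platelet and megakaryocyte genes, *Ppbp*, *Gp9*, *Gp1ba* and *Treml1* had no UMI in any member, and *Pf4* had 5, 0 and 0 UMIs over all members of each library. The list summed to 17.5, 24.6 and 30.5 CPM, nearly all of it *Itgb3* at 16.8, 24.2 and 29.9 CPM, against 21.7, 30.5 and 42.9 CPM in the other cells.

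Cells were then arranged by their *Fgf10* and *Col18a1* UMIs, with every other limit of the gate held. From cells with neither transcript to cells with 3 or more UMIs of each, *Itga2b* went from 20.5, 31.2 and 28 to 185, 164 and 148 CPM. *Cited1*, a transcriptional co-regulator, went from 33.5, 16.5 and 6.29 to 569, 246 and 144 CPM, and *Fabp4*, the fatty acid-binding protein of adipocytes, from 3487, 1171 and 475 to 9054, 4777 and 2386 CPM. *Itga2b* and *Cited1* were highest of all bins where both transcripts were most numerous, in every library, and *Fabp4* in wild-type and *Mgp*-KO. In Pd-KO the highest *Fabp4*, 4916 CPM, was in cells with 1 UMI of *Fgf10* and 2 of *Col18a1*. The edge of the gate was not a step for all genes. Cells just inside it, with 1 UMI of *Fgf10* and 2 of *Col18a1*, had *Itga2b* at 23.6, 68.1 and 52.2 CPM and *Cited1* at 77.6, 23.8 and 67.1 CPM. Just outside it, cells with 1 UMI of each had *Itga2b* at 32.3, 46.4 and 45.6 CPM and *Cited1* at 46.7, 34.8 and 19.3 CPM. Cells with no *Fgf10* and 2 UMIs of *Col18a1*, also outside, had *Itga2b* at 38.9, 59 and 38.3 CPM and *Cited1* at 53.1, 12.5 and 27.1 CPM. *Cited1* was thus higher inside than in these last cells in every library, while its order against cells with 1 UMI of each, and that of *Itga2b* against both groups, differed between libraries. Depth went the same way, with a median of 8204, 5168 and 4714 UMIs in cells with neither transcript and 17396, 8714.5 and 9722 UMIs in cells with 3 or more of each, and the CPM are scaled to each bin's own total.

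**Figure D1:**
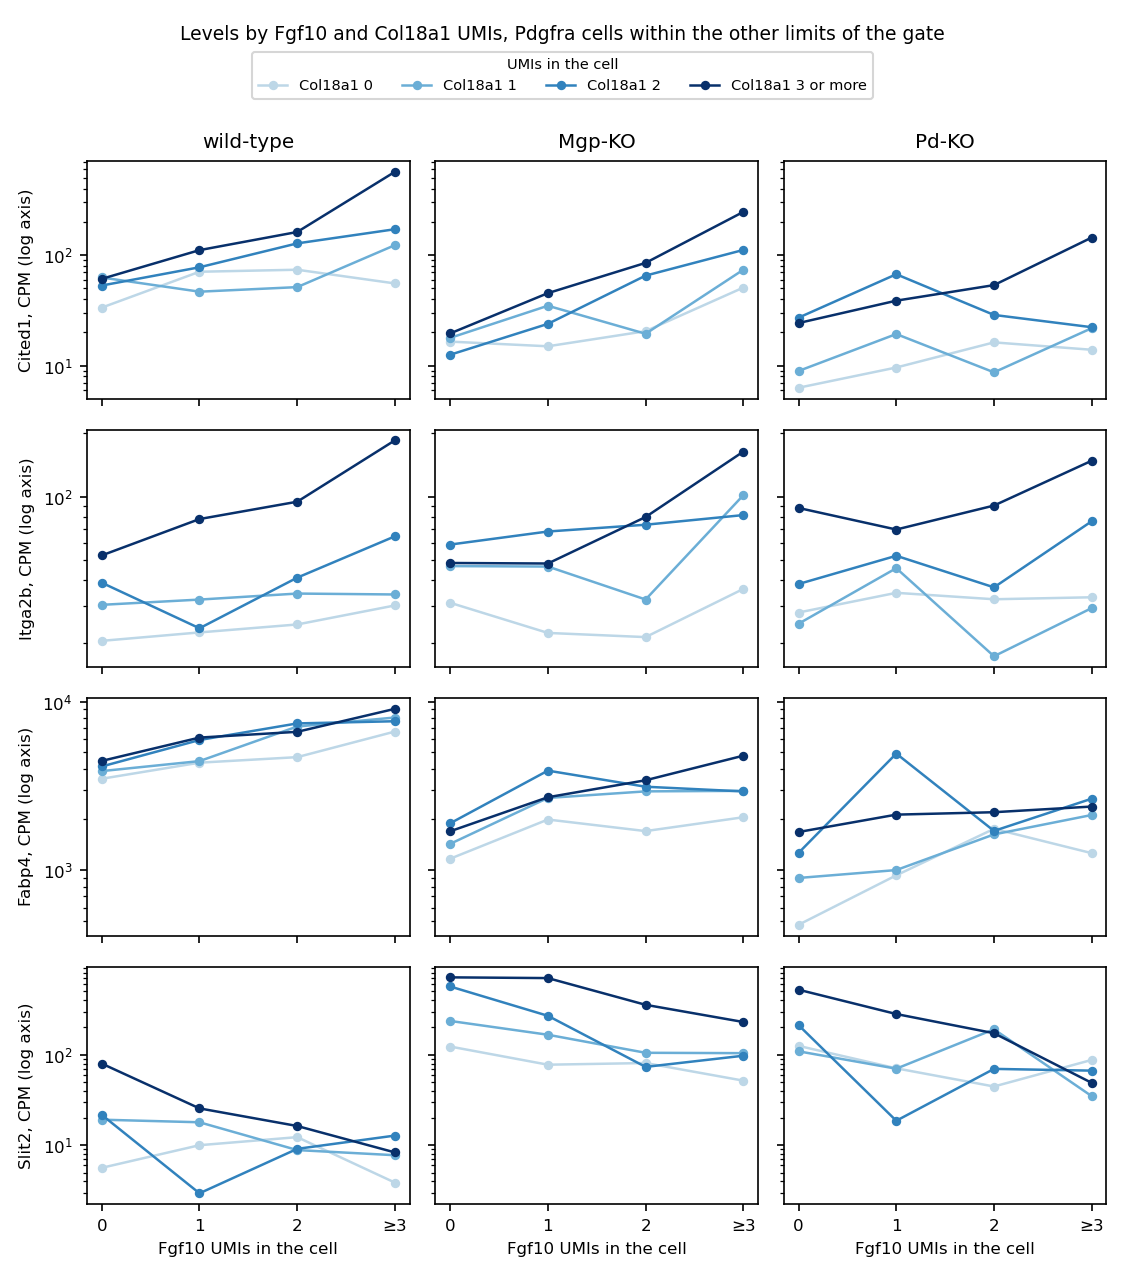
Level in CPM (log axis) of *Cited1*, *Itga2b*, *Fabp4* and *Slit2* against the number of *Fgf10* UMIs in a cell, with lines for the number of *Col18a1* UMIs, a row for each gene and a column for each library. Every point is the sum over the cells of that bin. *Cited1* and *Itga2b* were highest in cells with 3 or more UMIs of both genes, while *Slit2* was highest in cells with 3 or more *Col18a1* UMIs and no *Fgf10*.

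Among cells with many *Col18a1* transcripts, some genes were lower where *Fgf10* was more numerous. In cells with 3 or more *Col18a1* UMIs, *Slit2*, the gene of a secreted ligand of Robo receptors, was at 79.8, 716 and 523 CPM where no *Fgf10* was seen and at 8.33, 229.9 and 48.9 CPM where 3 or more *Fgf10* UMIs were seen. *Frem1*, an extracellular matrix protein of the *Fras1* complex, was at 101, 289 and 236 and 20.9, 100.4 and 146 CPM in the same bins. *Sdc1*, the proteoglycan syndecan-1, was at 233, 355 and 162 and 192, 192 and 137 CPM, lower in the bin with the most *Fgf10* in each library. From cells with neither transcript to cells with 3 or more of each, *Frem1* went instead from 12.3, 22.4 and 29.7 CPM to the higher values just given. The highest levels of *Slit2* and *Frem1* lay among cells that the *Fgf10* limit left out.

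Across all genes, 92 of 11781 with enough UMIs (0.781%) were at least 2-fold higher in members than in the other *Pdgfra* cells in every library, and 489 (4.15%) were at least 2-fold lower. Library by library, 1.2% of tested genes were higher and 10.2% lower in wild-type, 4.13% and 7.4% in *Mgp*-KO, and 5.79% and 8.28% in Pd-KO. The median log2 ratio over all genes was 0.02, 0.11 and 0.13. Among non-gate genes of at least 50 CPM in members or other cells of a library, *Cited1* (chrX:102247381-102252181, minus strand) led by its smallest ratio. It was at 383, 135 and 90.5 CPM in members against 122, 33.4 and 16.8 CPM, log2 ratios of 1.65, 2.01 and 2.43. Its free RNA was at 75.7, 314 and 40.4 CPM. After *Itga2b* came *Vav3*, a guanine nucleotide exchange factor, at 31, 191 and 157 CPM against 11.2, 43.6 and 32.5 CPM, and *Ddah1*, an enzyme that degrades the nitric oxide synthase inhibitor ADMA, at 36.6, 51.5 and 29.4 against 13, 18.9 and 10.6 CPM.

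The remaining leading genes were of several kinds. *Tenm4*, a teneurin of the cell surface, was at 14.9, 37.5 and 92.1 CPM against 5.56, 10.1 and 13.5 CPM, and *Trabd2b*, a membrane protease that inactivates Wnt proteins, at 32.9, 101 and 177 against 12.6, 30.8 and 29.1 CPM. *Enpep*, the aminopeptidase that cleaves angiotensin II, was at 126, 129.8 and 178 against 50.6, 31.8 and 34.1 CPM. *Sdc1* was at 148, 186 and 125 against 64.2, 52.4 and 20.9 CPM, and *Hgf*, the ligand of the receptor Met, at 25.1, 59.1 and 21.5 against 11.3, 16.5 and 8.34 CPM. Metabolic enzymes were among them, with *Ldhb*, a lactate dehydrogenase subunit, at 153, 171 and 83.7 against 60.5, 54.9 and 23 CPM and *Acot7*, an acyl-CoA thioesterase, at 51.8, 58.5 and 44.8 against 22.7, 16 and 12.8 CPM. *Noct*, a circadian phosphatase, *Arxes2*, an X-linked gene of adipocytes, *Egr2*, an immediate early factor, *Cldn15*, a claudin, and *Rbbp8*, a DNA end-resection factor, were also among the 20.

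**Figure D2:**
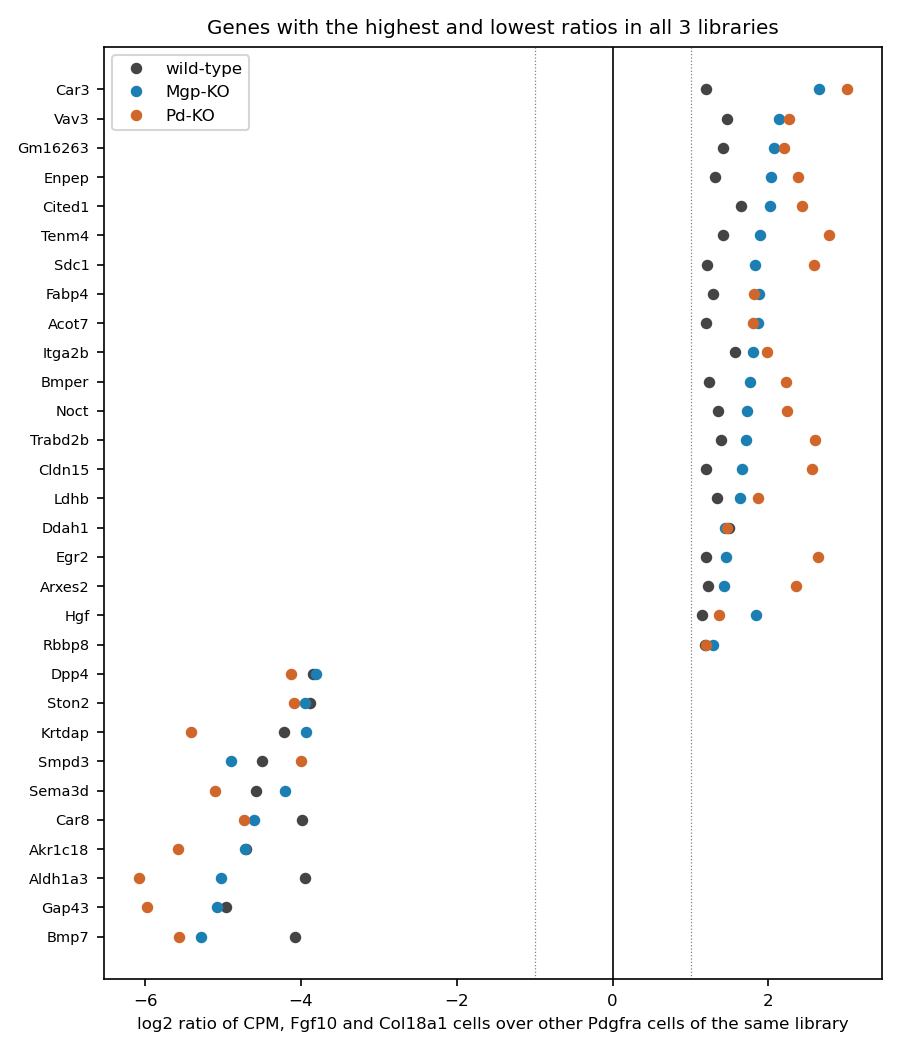
Log2 ratio of the summed CPM in members over that in other *Pdgfra* cells (horizontal axis) for the 20 highest and 10 lowest genes by their smallest ratio over the libraries (vertical axis), with a point for each library and dotted lines at a 2-fold difference. The ranking is among non-gate genes of at least 50 CPM in members or other cells of a library. Every point of the 20 genes lies to the right of the upper line and every point of the 10 genes to the left of the lower line, as the rule for naming them requires.

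The 10 lowest genes, again of at least 50 CPM in members or other cells of a library, included markers of interstitial progenitors. These are the stromal cells of the fibrous sheets around fat. *Dpp4*, the surface peptidase that marks interstitial progenitors, was at 8.3, 20.2 and 29.6 CPM in members against 119, 282 and 517 CPM in the others. *Bmp7*, a BMP ligand, was at 0.929, 0.799 and 1.13 against 15.7, 31.2 and 53.6 CPM, and *Sema3d*, a class 3 semaphorin, at 0.991, 2.6 and 3.85 against 23.7, 47.9 and 132 CPM. *Aldh1a3*, a retinoic acid-forming enzyme, was at 2.04, 1.8 and 1.81 against 31.5, 58.5 and 122 CPM, and *Gap43*, a growth-cone protein, at 0.991, 0.998 and 1.13 against 30.9, 33.8 and 71 CPM. *Akr1c18*, a steroid dehydrogenase, *Smpd3*, a sphingomyelinase, *Car8*, *Krtdap* and *Ston2* completed the group. Of the marker list of interstitial progenitors, all 8 genes were at least 2-fold lower in members, beside 4.15% of all genes. The gate limited *Pi16* in members only, so cells high in *Pi16* are all among the others, and the part of that limit in the other 7 genes was not tested. The list summed to 397, 358 and 559 CPM in members and 2478, 3445 and 5548 CPM in the others.

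The FGF family was read by ligands and then receptors. Of the 10 ligand genes, 6 met the count minimum in every library, and 2 were at least 2-fold higher, *Fgf13* and *Fgf10* of the gate itself, and 2 lower, beside 0.781% and 4.15% of all genes. *Fgf13*, an intracellular member that binds sodium channels, was at 7.55, 19 and 12 against 3.04, 6.5 and 5.51 CPM. *Fgf2* was lower in members, at 4.71, 15.8 and 13.6 against 20.6, 43.2 and 46.3 CPM, and *Fgf18* at 7.93, 6.79 and 14.9 against 25.8, 41.3 and 43.5 CPM. *Fgf7*, which shares the receptor form of *Fgf10*, was within 2-fold, at 40.7, 42.9 and 59.3 against 46.8, 58.8 and 71.5 CPM. The receptor *Fgfr1* was at 89.8, 145 and 146 against 127, 202 and 234 CPM, a lower level in members of every library, and *Fgfr2* at 5.88, 67.7 and 78.5 against 9.51, 55.6 and 59.6 CPM. None of the 3 tested receptor genes passed 2-fold in every library.

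The inhibitors and targets that FGF signalling induces differed by library. Of 12 genes 11 were tested, none passed 2-fold in all libraries, and the median log2 ratio was 0.12, 0.79 and 0.83 against 0.02, 0.11 and 0.13 over all genes. *Spry4* was at 26.2, 26 and 32.1 CPM in members against 17.2, 10.9 and 9.27 CPM, *Spry1* at 42.6, 56.1 and 68.1 against 36.5, 30.8 and 26.4 CPM, and *Etv5*, a transcription factor induced by FGF, at 9.72, 13 and 19.7 against 6.78, 7.26 and 5.89 CPM. The log2 ratio of *Spry4* was 0.61, 1.25 and 1.79. Members exceeded the others by more in each knockout than in wild-type, a difference between libraries that was not tested. Genes induced by tissue dissociation were also on the high side in members, with a median log2 ratio of 0.48, 0.45 and 1.21. The part of handling in the FGF target values was not tested.

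Basement membrane genes other than *Col18a1* were divided. Of 29 genes 21 were tested, 1 was at least 2-fold higher in every library and 2 were lower, beside 0.781% and 4.15% of all genes. The higher gene was *Lamc3*, the laminin γ3 chain, at 31.1, 28.4 and 36.2 against 8.24, 4.26 and 3.76 CPM, and the lower genes were *Lamb2*, the laminin β2 chain, at 40.1, 35.9 and 74 against 125, 134 and 243 CPM, and *Fras1* at 0.433, 1.2 and 1.81 against 1.66, 4.22 and 9.49 CPM. The collagen IV chains were higher by less in wild-type, with *Col4a1* at 2133, 1636 and 2601 against 1379, 786 and 721 CPM and *Col4a2* at 778, 853 and 1200.0 against 524, 399 and 341 CPM. *Col15a1*, the closest relative of *Col18a1*, had log2 ratios of 0.82, 1.56 and 2.01. Fibrillar and interstitial matrix was lower in sum, at 59884, 56939.5 and 82819 CPM in members against 80626, 72476 and 113227 CPM, with 4 of 28 genes at least 2-fold lower in every library and none higher.

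Several BMP ligands were low in these cells, and of their extracellular modulators more were lower than higher. Of 6 tested genes of the ligand list 4 were at least 2-fold lower in members, beside 4.15% of all genes, *Bmp3*, *Bmp4*, *Bmp6* and *Bmp7*, with *Bmp4* at 1.49, 0.998 and 0.679 CPM against 16.5, 14.7 and 17.6 CPM. The most abundant gene of that list was *Bmp1*, which encodes a metalloprotease and not a ligand, at 143, 152 and 232 CPM in members of a list sum of 155, 165 and 247 CPM. Of 11 tested extracellular modulators, *Bmper* was higher and *Chrd*, *Chrdl1* and *Nbl1* were lower. *Chrdl1*, a chordin-like BMP antagonist, was at 11.5, 19.4 and 22.8 against 94.8, 129 and 172 CPM. *Fst*, the gene of follistatin, was at 389.9, 467 and 484 against 277, 317 and 239.8 CPM, within 2-fold in wild-type and *Mgp*-KO. Of the 15 tested receptors, Smads and Id genes none passed 2-fold in all libraries in either direction.

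Adipogenic and lipid genes were on the high side in members. Of 18 tested, 4 were at least 2-fold higher in every library and none lower, beside 0.781% and 4.15% of all genes, with a median log2 ratio of 0.55, 0.81 and 1.49. *Pparg*, the master regulator of adipogenesis, was at 95.2, 120.0 and 275 CPM against 45, 37.3 and 51.7 CPM. *Fabp4* was at 8030.4, 3795 and 2485 against 3301, 1034 and 709 CPM, beside 2402, 3816 and 3458 CPM in free RNA. *Lpl*, the lipase that frees fatty acids from lipoproteins, was at 4652, 3036 and 3664 against 2187, 1152 and 951 CPM, and *Cd36*, a fatty acid transporter, at 392, 263 and 273 against 194, 87.4 and 82.1 CPM. Genes of the mature fat cell were present at lower counts, *Adipoq* at 31.5, 10.8 and 28 CPM and *Plin1* at 20.4, 4.39 and 15.4 CPM. *Car3*, also abundant in adipocytes, was at 902, 323 and 311 against 392, 51.3 and 38.8 CPM. The part of doublets or of free fat cell RNA in these values was not tested.

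Integrins and metalloproteases were called in both directions, and guidance genes mostly lower, beside 0.781% of all genes higher and 4.15% lower. Of 15 tested integrins, *Itga2b* was at least 2-fold higher, and *Itga2* and *Itga6* were lower. Of 22 tested ADAM and ADAMTS proteases, *Adam12* and *Adamts18* were higher, the latter at 3.41, 21.8 and 19 against 1.42, 4.46 and 2.64 CPM, and *Adam22* and *Adamts16* were lower. Of 21 tested guidance genes, *Sema3g* was higher, at 11.1, 13.8 and 6.11 against 4.85, 2.91 and 1.54 CPM, and 7 were lower, among them *Sema3c* at 20, 34.9 and 98.8 against 209, 314 and 949.6 CPM. The median log2 ratio was -0.47, 0.21 and 0.14 over the integrins, -0.02, 0.30 and 0.03 over the proteases and -1.13, 0.17 and -0.27 over the guidance genes.

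Markers of other cell types were summed over each list. The gate allowed no *Pecam1* or *Epcam* UMI in members and set no such limit on the other *Pdgfra* cells, so lower endothelial and epithelial sums follow in part from the rule. The endothelial list summed to 25, 7.19 and 12.4 CPM, with *Egfl7* its most abundant gene, against 110.4, 40.6 and 106 CPM in the other *Pdgfra* cells, and the gate set *Pecam1* to 0. The epithelial list summed to 36.5, 9.98 and 12.4 CPM, led by *Krt19*, against 379, 147 and 74.8 CPM, with *Epcam* at 0 by the gate. The leukocyte list summed to 4.64, 0.799 and 2.04 CPM, led by *Cd74*, against 6.52, 1.73 and 4.88 CPM, with no gene at the count minimum. The smooth muscle and pericyte list was at 470.2, 189.9 and 242 CPM against 545, 113 and 109 CPM, lower in members of wild-type and higher in those of both knockouts, with none of 6 tested genes past 2-fold in every library, and was led by *Acta2* at 207, 94.4 and 63.6 CPM. *Acta2* was at 527, 259 and 148 CPM in free RNA, above its level in members in every library.

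Members were set against several groups of *Pdgfra* cells, most of them defined by genes that the gate limits. The group with the smallest share of genes past 2-fold had at least 2 UMIs of *Icam1*, the adhesion molecule that marks committed preadipocytes. The *Icam1* cells met the same upper limits as members and had no *Fgf10* UMI. They numbered 279, 476 and 45 cells, so that Pd-KO ratios for genes at low CPM in these cells rest on few UMIs. Against the *Icam1* cells 21 of 6208 genes (0.338%) were at least 2-fold higher in members of every library and 20 (0.322%) were lower. Among non-gate genes of at least 50 CPM in either group of a library, *Cited1* was again first. It was at 383, 135 and 90.5 CPM in members against 58.3, 16 and 17.9 CPM. *Itga2b* followed at 37.2, 38.7 and 32.9 CPM and *Sdc1* at 51.5, 61.4 and 53.8 CPM in the *Icam1* cells. *Nxn*, the redox protein nucleoredoxin, was at 78.6, 258 and 269.9 against 36.7, 88.4 and 89.6 CPM, and *Rbp4*, the retinol carrier, at 199, 118 and 123 against 89.5, 39.3 and 23.9 CPM. Lower in members were *Tgfbi*, an adhesive matrix protein, at 29.8, 32.7 and 49.3 against 126, 133 and 197 CPM, *Igfbp3* at 81.2, 84.9 and 68.3 against 323, 618 and 317 CPM, and the complement genes *C3* and *C4b*, with *C3* at 305, 280.0 and 485 against 701, 804 and 1661 CPM. *Ccl19*, a chemokine of reticular stroma, was at 111, 15.6 and 15.2 against 1489, 50.3 and 131 CPM.

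Against cells with at least 2 UMIs of *Gdf10*, a gene that marks a regulatory stromal population, 86 of 8767 genes (0.981%) were at least 2-fold higher and 207 (2.36%) lower. Under the same minimum of 50 CPM, *Car3* led, at 157, 35.4 and 39.9 CPM in the *Gdf10* cells, then *Cited1* at 89.6, 24.3 and 22 CPM. *Fabp4* was at 2365, 1022 and 536 CPM there. *Fmo2*, a flavin monooxygenase, was at 10.7, 41.5 and 17.4 CPM in members against 285, 418 and 274 CPM, and *Clec11a*, a secreted lectin, at 9.29, 7.99 and 7.01 against 112, 71 and 121 CPM. The members were farther from cells with at least 3 UMIs of *Pi16*, where 339 of 10555 genes (3.21%) were higher and 498 (4.72%) lower. For cells with at least 2 UMIs of *Ccn5* the counts were 195 of 8166 genes (2.39%) and 221 (2.71%), and for cells with at least 2 of *Crabp1* 178 of 6282 (2.83%) and 153 (2.44%). *Cited1* was among the 10 genes named as higher against each of these 5 groups.

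The members varied among themselves. After thinning to 5000 UMIs per cell, which left 939, 517 and 437 members, the ratio of variance to mean over members had a median of 1.10, 1.14 and 1.13 over 2801 genes, where 1 is the value of counting alone. It was 36.5, 39.9 and 34.5 for *Gsn*, the actin-severing protein gelsolin, 25.7, 26.8 and 18.7 for *Fabp4*, 33.4, 16.9 and 25.2 for *Car3*, and 13.1, 17.4 and 11.1 for *Postn*, the matrix protein periostin. *Malat1*, a nuclear non-coding RNA, was second to *Gsn* by its smallest ratio, at 93.2, 33.2 and 41.1. *Col3a1*, *Apoe*, *Col1a2*, *Col1a1*, *Sparc*, *H19* and *Gm42418* were also among the 20 genes with the highest smallest ratio, so that matrix, lipid and non-coding genes were all among them.

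These genes moved in opposite groups across the members. Pearson correlations of log counts across members are given per library as a description, since cells of a library share it and its free RNA. *Gsn* went with *Clec3b*, the gene of tetranectin, at r of 0.55, 0.66 and 0.58, and against *Fn1*, the gene of fibronectin, at r of -0.59, -0.64 and -0.52. *Postn* went with *Fn1* at r of 0.49, 0.56 and 0.45 and with *Col18a1* at 0.36, 0.30 and 0.34, and against *Gsn* at -0.55, -0.56 and -0.41. *Fabp4* went with *Lpl* at r of 0.44, 0.65 and 0.50, with *Cd36* at 0.35, 0.54 and 0.46 and with *Cited1* at 0.34, 0.33 and 0.28, and against *Col14a1* at -0.40, -0.33 and -0.42. *Fgf10* went with *Cited1* at r of 0.45, 0.36 and 0.24 and with *Itga2b* at 0.30, 0.29 and 0.20. *Fgf10* and *Col18a1* themselves had r of 0.27, 0.23 and 0.17, in cells that the gate had chosen on both.

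Members made up 12.3% of the *Pdgfra* cells of wild-type (946 of 7702, exact Clopper-Pearson 95% interval 11.6 to 13.04), 6.19% of *Mgp*-KO (563 of 9099, 5.70 to 6.70) and 7.37% of Pd-KO (470 of 6374, 6.74 to 8.04). The share was thus lower in the knockouts, with a difference of -6.095 percentage points in *Mgp*-KO (95% interval -6.99 to -5.21) and -4.91 in Pd-KO (-5.89 to -3.92). The gate counts UMIs, and the wild-type library was deeper. Among cells of 2000 to 5000 UMIs the share was 1.67%, 2.10% and 4.25%, and among cells of 5000 to 10000 UMIs 4.44%, 7.002% and 8.99%, both highest in Pd-KO. Among cells of 10000 to 20000 UMIs it was 14.4%, 9.05% and 6.79%, and among deeper cells 15.3%, 5.56% (4 of 72) and 3.23% (5 of 155), both highest in wild-type. The intervals of wild-type and Pd-KO did not overlap in the ranges above 5000 UMIs, where the order turned.

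Thinning brought the shares closer. With every cell thinned to 5000 UMIs the share was 7.39%, 5.07% and 6.06%, and with 3000 UMIs 4.02%, 2.56% and 4.19%. At 3000 UMIs the intervals of wild-type (3.46 to 4.65) and Pd-KO (3.603 to 4.84) overlapped, while that of *Mgp*-KO (2.18 to 2.98) lay below both. Shallower cells were left out, 418, 2192 and 777 *Pdgfra* cells at 5000 UMIs. Both gate genes also have long genomic spans, 122 kb and 114 kb, and long genes had higher ratios of knockout to wild-type, described with the genotypes. The part of depth, header version and genotype in these shares was not tested.

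**Figure D3:**
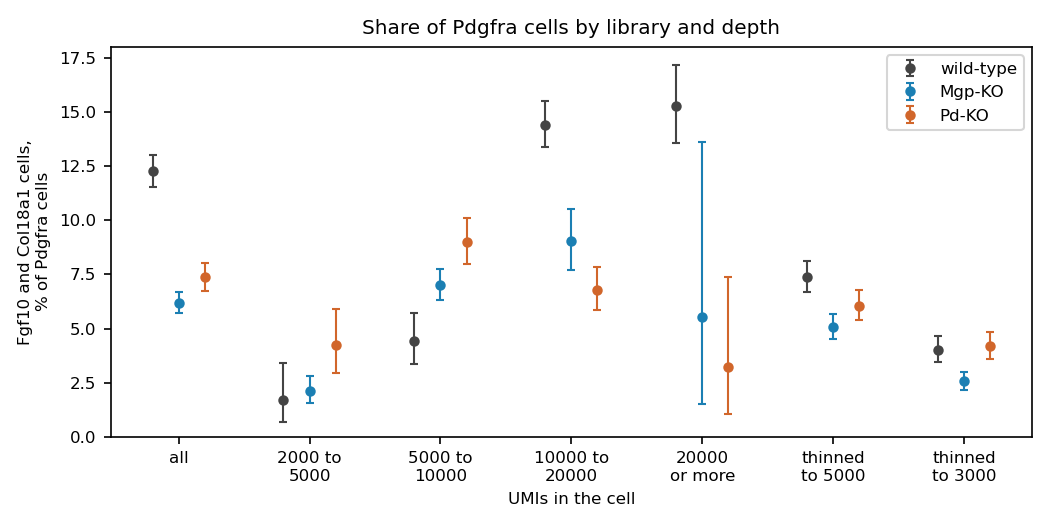
Share of *Pdgfra* cells that met the rule, in percent with exact 95% binomial bars, for each library over all cells, within 4 ranges of UMIs per cell, and after thinning every cell to 5000 or 3000 UMIs. Wild-type was highest over all cells and above 10000 UMIs per cell, and lowest in both ranges below 10000 UMIs.

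The deleted gene was read first in the comparison of genotypes. *Mgp* (chr6:136872435-136875823, minus strand) had 989, 0 and 2 UMIs in members, or 61.2, 0 and 0.452 CPM, beside 539, 0.754 and 2.04 CPM in the other *Pdgfra* cells and 359, 1.27 and 6.28 CPM in free RNA. Both knockout libraries thus matched their labels in these cells. With the floor of 3 counts that 0 UMIs allows, the ratio of *Mgp*-KO to wild-type was, in log2, -6.68 or lower. In Pd-KO it was -7.08 (-10.13 to -5.22) (95% interval). Wild-type members held less *Mgp* than the other *Pdgfra* cells and than free RNA.

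Of 9901 genes with enough UMIs, 1739 (17.6%) were at least 2-fold higher and 153 (1.55%) at least 2-fold lower in *Mgp*-KO members than in wild-type members. In Pd-KO members 2009 of 9859 (20.4%) were higher and 213 (2.16%) lower, and both comparisons share the wild-type library. In both knockouts 1380 of 9751 genes (14.2%) were higher and 57 (0.585%) lower. With median-of-ratios scaling the counts were 1417 higher and 246 lower in *Mgp*-KO and 1500 higher and 445 lower in Pd-KO. The ratios moved with the genomic span of the gene. From the shortest to the longest quartile of genes the median log2 ratio was -0.20, 0.00, 0.30 and 1.08 in *Mgp*-KO and -0.25, 0.02, 0.39 and 1.27 in Pd-KO, and in the longest quartile 54.0% and 63.3% of genes were at least 2-fold higher. Between the knockouts, which share a header version, the same medians for Pd-KO over *Mgp*-KO were -0.08, -0.02, 0.06 and 0.21.

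**Figure D4:**
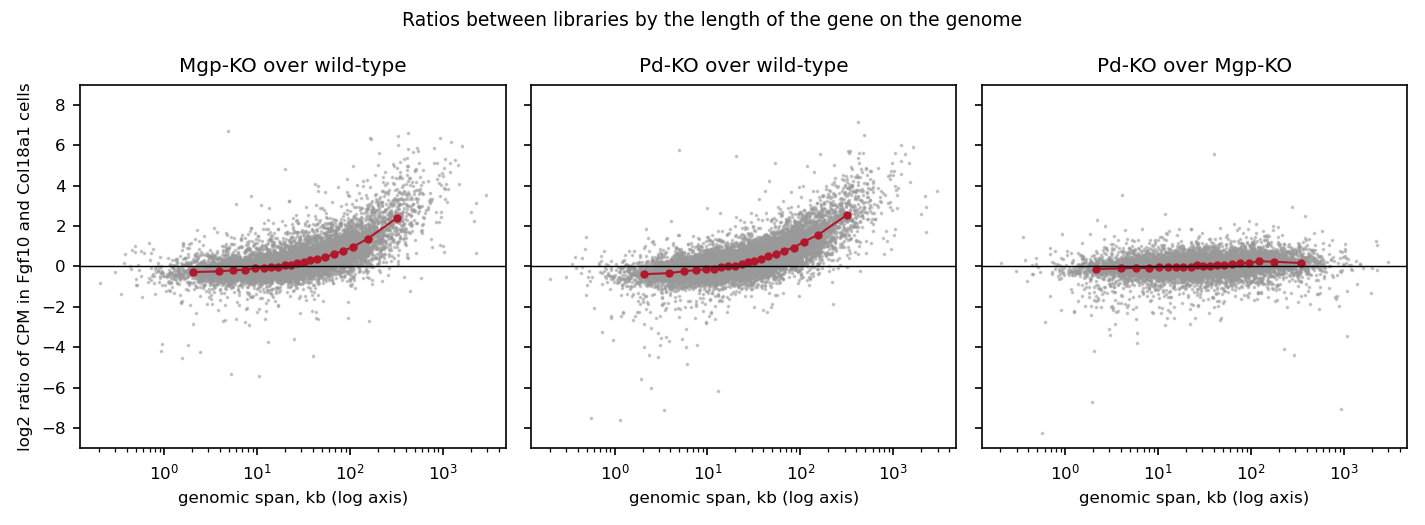
Log2 ratio of members between libraries (vertical axis) against the genomic span of the gene in kb (horizontal log axis), a panel for each of *Mgp*-KO over wild-type, Pd-KO over wild-type and Pd-KO over *Mgp*-KO; grey points are genes and red points the medians of 20 equal bins. The medians climb with span in both comparisons with wild-type and stay near 0 in the comparison of the knockouts; 9 genes in *Mgp*-KO and 6 in Pd-KO with 0 UMIs on a side are not drawn.

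The genes named as highest in both knockouts were mostly such long genes. *Fhit*, a hydrolase gene of 1612 kb, was at 0.867, 54.5 and 51.3 CPM. *Camk1d*, a calmodulin kinase gene of 421 kb, was at 1.24, 68.9 and 175 CPM in members and at 5.22, 826 and 4465 CPM in free RNA. The given markers with long spans followed them, with *Adam12* at a log2 ratio of 2.58 (2.51 to 2.65) in *Mgp*-KO and 2.67 (2.60 to 2.73) in Pd-KO. After the running median for genes of like span was taken off, these were 0.04 and 0.00, and those of *Bmper* were 0.11 and 0.17. *Itga2b*, which spans 16.8 kb, was at -0.37 and -0.32 before that step. In the longest genes a difference of genotype cannot be told apart from the header version.

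Among genes under 10 kb, a limit set after the relation with span was seen, 48 of 2333 (2.06%) were at least 2-fold higher and 86 (3.69%) lower in *Mgp*-KO. In Pd-KO the counts were 30 of 2326 (1.29%) higher and 140 (6.02%) lower. Both knockouts were lower in 37 genes (1.61% of 2302) and higher in 7 (0.304%). Beside *Mgp*, the genes lowest in both included *Ccl19*, at 111, 15.6 and 15.2 CPM, *Cited1* at log2 ratios of -1.50 (-1.62 to -1.39) and -2.08 (-2.23 to -1.93), *Apoe*, the gene of apolipoprotein E, at 10293, 3663 and 1858 CPM, and *Car3* at 902, 323 and 311 CPM. The other *Pdgfra* cells and free RNA moved with some of these. *Apoe* was at 6659, 2236 and 667 CPM in the other cells and 6936, 2079.9 and 449 CPM in free RNA, and *Ccl19* at 148, 18.2 and 8.27 and 47, 13.9 and 3.59 CPM. *Car3* was at 392, 51.3 and 38.8 CPM in the other cells, and its free RNA, at 132, 416 and 104 CPM, was highest in *Mgp*-KO. In *Mgp*-KO over wild-type the values differed between cells called female and male, of which *Mgp*-KO had 419 and 84. The part of sex in this was not tested. The log2 ratio in cells called female and male was -1.90 and -0.44 for *Cited1*, -1.82 and -0.62 for *Apoe* and -2.37 and 0.018 for *Car3*, so that these were at least 2-fold lower in cells called female and not in those called male. In members of 5000 to 20000 UMIs the ratio of *Car3* was -0.39. *Ccl19* was at -3.28 and -2.09. In Pd-KO the ratios were -1.84 and -2.22 for *Cited1*, -2.65 and -2.40 for *Apoe* and -2.64 and -0.95 for *Car3*. *Ccl21a*, *Glycam1* and *Apoc1* were also named, *Ccl21a* with near-identical copies in the genome and so uncertain, as were *Gm42418* and *AY036118*, which overlap on opposite strands.

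Among non-gate genes of at least 50 CPM in a library, *Cited1* thus had the highest smallest ratio of members over other cells. It was also lower in members of each knockout than in those of wild-type, in *Mgp*-KO by less than 2-fold in cells called male. It stood at 383, 135 and 90.5 CPM, and in the other *Pdgfra* cells at 122, 33.4 and 16.8 CPM, log2 ratios over wild-type of -1.87 and -2.86 in those cells. The lower level was therefore not confined to members. Its gene is short, 4.8 kb. Of the 10 short genes named as highest in both knockouts, 3 non-coding or predicted genes passed 2-fold in each. Of these, *Gm8797* had log2 ratios of 0.27 in *Mgp*-KO and 0.41 in Pd-KO in cells called female, under 2-fold. In cells called male they were 2.28 and 2.93. Among the rest of the 10 were *Penk*, the proenkephalin gene, at 35.3, 97.8 and 52.7 CPM, and *Cirbp*, a cold-inducible RNA-binding protein, at 42.6, 115 and 70.6 CPM.

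Adipogenic and lipid genes went both ways between genotypes, and some ratios differed between cells called female and male. In *Mgp*-KO members 5 of 18 tested were at least 2-fold higher than in wild-type and 5 lower, beside 17.6% and 1.55% of all genes. In Pd-KO members 6 were higher and 3 lower, beside 20.4% and 2.16%. With the running median for span taken off, 0 were higher and 4 lower in Pd-KO, beside 500 higher and 381 lower of 9857 genes. The higher ones in *Mgp*-KO were *Ebf1*, *Ebf2*, *Ebf3*, *Zfp423* and *Prdm16*, all transcription factor genes with spans of 121 kb or more, and none stayed 2-fold higher once the running median for span was taken off. The lower ones were *Fabp4* at -1.08 (-1.10 to -1.06), *Apoe* at -1.49 (-1.51 to -1.47), *Cebpa*, *Adipoq* and *Plin1*. In *Mgp*-KO, *Fabp4* was at -1.32 in cells called female and -0.32 in cells called male. The same values were -3.92 and -0.06 for *Plin1* and -4.61 and 1.17 for *Adipoq*, which turned to higher. Both *Plin1* and *Adipoq* were at low CPM in *Mgp*-KO members, of which 84 were called male. The part of few cells or doublets in those ratios was not tested. In Pd-KO *Fabp4* was at -2.19 in cells called female and -1.33 in cells called male. *Pparg* was at 95.2, 120.0 and 275 CPM, highest in Pd-KO, and its free RNA, at 27, 72.1 and 277 CPM, was highest there too. The adipocyte marker list, nearly all *Car3*, summed to 1010.2, 360.2 and 392 CPM in members, and to 460.3, 68.4 and 55.3 CPM in the other *Pdgfra* cells. Of the 7 markers of committed preadipocytes, 2 were lower in *Mgp*-KO and none higher, and 3 were lower and 1 higher in Pd-KO. With the running median for span taken off 4 and 5 were lower and none higher. Of all genes, 321 of 9899 in *Mgp*-KO and 381 of 9857 in Pd-KO were lower after that step. The median log2 ratio of the 7 in *Mgp*-KO, without that step, was -0.70 in cells called female and -0.32 in cells called male. *Pparg*, at a log2 ratio of 1.53 in Pd-KO, was at 0.25 with the running median for span taken off, so that its 2-fold call was lost.

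The knockouts were compared with each other because their files share a header version and are close in depth. Their free RNA was not alike. It held 790433 UMIs over 52008 barcodes in *Mgp*-KO and 3343529 over 68925 in Pd-KO, with *Gm42418* at 18133 and 150069 CPM of it. Of 8540 genes, 183 (2.14%) were at least 2-fold higher in Pd-KO members than in *Mgp*-KO members and 234 (2.74%) lower, and among genes under 10 kb 29 of 1867 (1.55%) and 91 (4.87%). Of 19 tested basement membrane genes 9 were higher and none lower, beside those 2.14% and 2.74% of all genes, with a median log2 ratio of 0.80 against 0.03 over all genes. In the other *Pdgfra* cells none of them passed 2-fold, beside 57 higher and 233 lower of 8539 genes. The median there was 0.41, against 0.01 over all genes. The 9 were the collagen IV chains *Col4a3*, *Col4a4* and *Col4a5*, *Col15a1*, the laminin chains *Lama4* and *Lamb2*, *Nid2*, the perlecan gene *Hspg2* and *Smoc2*. *Col15a1* was at 870.1, 479 and 1031 CPM, a log2 ratio of 1.11 (1.03 to 1.18), and 0.65 in the other cells. *Hspg2* was at 409, 329.9 and 674 CPM, a log2 ratio of 1.03 (0.94 to 1.12), and *Col4a5* at 26.3, 21.8 and 64 CPM, a log2 ratio of 1.56 (1.23 to 1.89). *Col18a1*, which the gate used, was at -0.04. With the running median for span taken off, 5 of the 19 were at least 2-fold higher and none lower, beside 139 higher and 252 lower of 8539 genes. In cells called female and male the list median was 0.72 and 0.69. *Col15a1* was at 1.33 and 0.56, *Hspg2* at 1.19 and 0.69 and *Col4a5* at 1.89 and 0.74. In CPM, wild-type members lay between the knockouts for *Col15a1*, *Hspg2* and *Col4a5*. Over wild-type, the list median was 0.05 in *Mgp*-KO and 0.92 in Pd-KO. With the running median for span taken off, these medians were -0.84 and -0.18. After that step 10 of 20 tested genes were at least 2-fold down in *Mgp*-KO and 1 was up. This stood beside 321 and 575 of 9899 genes. In Pd-KO 2 were down and 1 was up, beside 381 and 500 of 9857 genes. The part of header version in the place of wild-type was not tested.

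**Figure D5:**
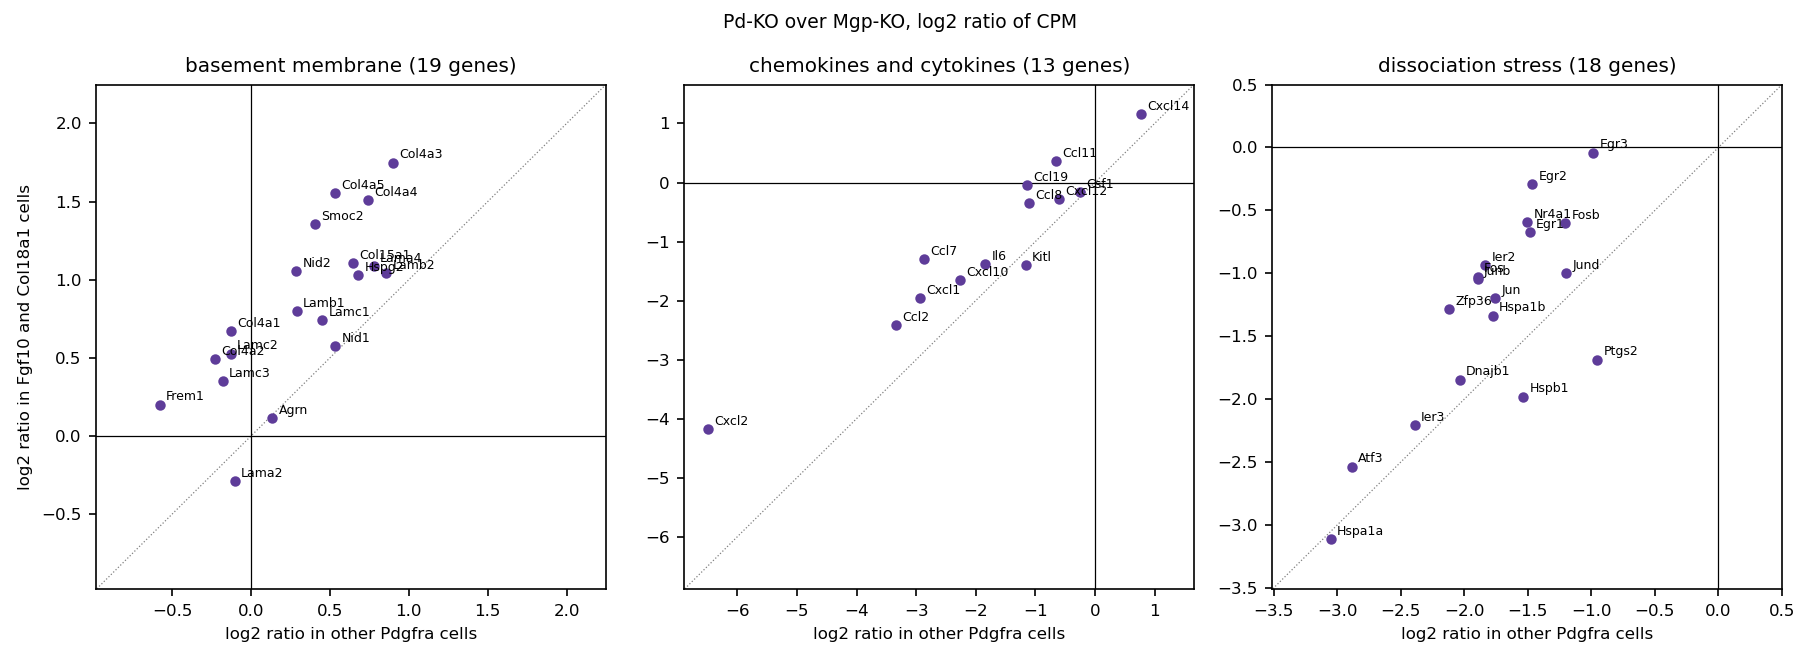
Log2 ratio of Pd-KO over *Mgp*-KO in members (vertical axis) against the same ratio in the other *Pdgfra* cells (horizontal axis) for 19 basement membrane genes, 13 chemokines and cytokines and 18 dissociation stress genes. Apart from *Lama2*, the basement membrane genes lie above 0 in members, and most chemokines and stress genes lie below 0 on both axes.

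Chemokines and cytokines went the other way. Of 13 tested 7 were at least 2-fold lower in Pd-KO members and 1 was higher, beside 2.74% and 2.14% of all genes. The median was -1.30, and in the other *Pdgfra* cells 9 were lower, beside 233 of 8539 genes. *Cxcl2*, a chemokine for neutrophils, was at 57.2, 65.5 and 3.62 CPM, *Ccl2*, a chemokine for monocytes, at 297, 550.1 and 103 CPM and *Cxcl1* at 737, 798 and 205 CPM. *Kitl*, the gene of stem cell factor, was at 50.6, 289 and 109 CPM. *Cxcl14* was the higher gene, at 161, 66.1 and 148 CPM. Its log2 ratio was 0.87 in cells called female, under 2-fold, and 1.55 in cells called male. The list median was -0.42 in cells called female and -1.09 in cells called male. The free RNA was lower too, with *Ccl2* at 223, 602 and 44.6 CPM and *Cxcl1* at 305, 793 and 125 CPM.

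Genes induced by tissue dissociation moved with the chemokines. Of 18 tested stress genes 11 were at least 2-fold lower in Pd-KO members than in *Mgp*-KO members, with a median of -1.12. This stood beside 2.74% of all genes and 4.87% of genes under 10 kb. In the other *Pdgfra* cells 16 were lower, beside 233 of 8539 genes, with a median of -1.77. *Hspa1a*, an inducible heat shock protein, was at 330.3, 289 and 33.5 CPM, *Atf3*, a stress factor, at 359, 519.6 and 89.6 CPM and *Jun* at 3345, 4867 and 2124 CPM. *Icam1* was at 148, 165 and 57.9 CPM and the C/EBP factor gene *Cebpd* at 333, 441 and 95.7 CPM. Pd-KO members were lowest in each of these genes, below wild-type too. The part of handling in the chemokine, *Icam1* and *Cebpd* values was not tested.

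Some differences between the knockouts were larger in members than in the other cells. The following genes were chosen after their values were seen. *Prlr*, the prolactin receptor, was at 47.6, 26.4 and 105 CPM in members, a log2 ratio of Pd-KO over *Mgp*-KO of 1.99 (1.71 to 2.28), against 0.18 in the other *Pdgfra* cells. *Dkk2*, a secreted Wnt antagonist, was at 16.2, 12.8 and 61.1 CPM, a log2 ratio of 2.26 (1.86 to 2.67) against 0.76. *Slit2* was lower in Pd-KO members, at 11.5, 332 and 98.4 CPM, a log2 ratio of -1.76 (-1.91 to -1.60) against -0.86. In cells called female and male the ratio was 2.21 and 1.06 for *Prlr*, 2.07 and 1.76 for *Dkk2* and -1.89 and -0.03 for *Slit2*, so that the lower *Slit2* of Pd-KO was not seen in cells called male. The difference between cell groups was not tested for any of them.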

How the data were processed

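Single-cell RNA-seq was analysed in 3 libraries, 1 per genotype, with groups taken from the labels. The authors deposited, for each library, a Cell Ranger matrix of UMI counts without normalization. The study's methods name Cell Ranger 6.1.1 at default settings and mm10, the submitters' processing notes GRCm39 and Cell Ranger 6.1.1, and the file headers Cell Ranger 4 for wild-type and 7.1.0 for both knockouts. Since these versions disagree, the setting for intron reads in each matrix, and that for strand, could not be read from the sources used here. A cell was called female with a UMI of *Xist* and none of Y-linked genes, male with the reverse, and otherwise not called.

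Barcodes with at least 2000 UMIs and at most 10% mitochondrial UMIs were kept, and the rule was applied to raw UMIs. No doublet caller was run. Counts were summed over members per library and scaled to a common total as CPM. Free RNA was the sum over barcodes of 10 to 100 UMIs. Genes with at least 100 UMIs over the compared sums were counted past 2-fold, and log2 ratios carry exact conditional binomial 95% intervals. Shares carry exact Clopper-Pearson intervals, computed with scipy 1.17.1. With 1 library per genotype no test was made and no paired fit exists.

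Genes were named by a fixed rule: the gate genes and given markers, the 20 highest and 10 lowest genes against the other *Pdgfra* cells, the 10 highest and lowest in both knockouts (at least 50 CPM in a library), the 20 most variable among members, and list members. A gene that this rule named is not reported here. The 20 highest and 10 lowest were ranked by the smallest ratio over libraries, without gate genes. They too were taken from genes of at least 50 CPM in members or other cells of a library. The members and lists were chosen with earlier results of these data known. Spans and positions were read from GENCODE annotation of GRCm38. Alternatives in depth, gate, scaling, count minimum, sex and span were tried. The scripts ran under Python 3.11.15 with numpy 2.4.6 and pandas 2.3.3 and were tested on simulated counts.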

Additional observations from a re-analysis of the deposited data

How the results depend on the processing

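The share of members depended on depth and on the gate. The difference *Mgp*-KO minus wild-type, -6.095 points, was -4.52 over all passing barcodes, -7.02 in cells called female and -5.35 in cells called male, -4.85 with at least 2 *Fgf10* and 3 *Col18a1* UMIs, -12.9 without upper limits on *Pi16*, *Ccn5*, *Gdf10* and *Crabp1*, -9.76 in cells of 20000 or more UMIs, -2.32 after thinning to 5000 UMIs and -1.47 at 3000. It turned to 0.424 in cells of 2000 to 5000 UMIs and 2.56 in cells of 5000 to 10000. Pd-KO minus wild-type, -4.91 points, was -3.67, -3.21, -4.95, -3.59 and -9.59 under the first 5 of these, -7.64 in cells of 10000 to 20000 UMIs, -12.1 above, -1.33 after thinning to 5000, and turned to 2.57 and 4.55 in the lowest ranges and to 0.165 at 3000 UMIs.

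The 92 genes higher in members became 249 against *Pdgfra* cells with no *Fgf10* or *Col18a1* UMI, of which 66 were shared. In *Mgp*-KO over wild-type, the 1739 higher and 153 lower genes became 5934 and 2833 with a minimum of 1 UMI, 2895 and 571 at 1.5-fold, 575 and 322 with the running median for span taken off, and 48 and 86 among genes under 10 kb. In Pd-KO the 2009 and 213 became 6114 and 3035, 3326 and 837, 500 and 381, and 30 and 140. Median-of-ratios scaling, which moved the median of all genes by 0.17 and 0.24, gave 1417 and 246 in *Mgp*-KO and 1500 and 445 in Pd-KO. Lower genes in *Mgp*-KO were 259 with at least 50 UMIs and 97 with at least 200, and higher genes 742 in male cells. *Car3* in *Mgp*-KO over wild-type was 0.0178 in male cells, and the ADAM and ADAMTS median in Pd-KO was -0.68 under 10 kb, where 1 gene was left. The cause was not tested, except that fewer or more genes are tested under another minimum. The limit of 10 kb, and other cells held to the limits on *Epcam*, *Pecam1* and *Top2a*, were chosen after seeing the data. Of the values for single genes and lists, 461 stayed within their limits, 209 moved past them and 2 that were at least 2-fold turned sign, both given above. Smaller values that turned are not counted apart, such as the Pd-KO median of the basement membrane list, 0.92, at -0.18 with span taken off, and that of the lipid list, -0.33, at 0.14 in cells called male. Of those for the counts and shares, 49 stayed, 36 moved and 5 turned. Values by sex for the lists were added after seeing the data. No paired analysis was possible because each genotype was 1 library.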

Other observations

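Some Wnt ligands were low in the *Fgf10* and *Col18a1* cells. Of 11 Wnt ligand and R-spondin genes tested, 3, *Wnt5b*, *Wnt10b* and *Wnt16*, were at least 2-fold lower than in the other *Pdgfra* cells of every library and none was higher, beside 4.15% of all genes lower and 0.781% higher. *Wnt10b*, a ligand that holds back adipogenesis, was at 0.248, 0.399 and 0.226 CPM against 6.41, 6.83 and 15.5 CPM, and *Wnt2* at 21, 52.1 and 20.8 against 54.7, 83.1 and 153 CPM. Hedgehog genes stayed within 2-fold in at least 1 library, none of 11 tested being called, with the receptor *Ptch1* at 9.66, 13 and 17.9 against 10.9, 9.52 and 12 CPM and the target *Gli1* at 1.18, 2 and 3.62 against 3.89, 1.59 and 2.57 CPM. In the insulin-like growth factor (IGF) axis, *Igfbp2* and *Igfbp3* of 10 genes were lower. *Igf1* was at 294, 248 and 282 CPM in members against 434, 398 and 414 CPM. *Igfbp5*, an IGF-binding protein, was at 747, 355 and 1288 CPM in members and 940.2, 598 and 1488 CPM in the others, highest in Pd-KO in both.

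Pericyte genes differed between the knockouts. *Rgs5*, a regulator of G protein signalling abundant in pericytes, was at 21.2, 0.998 and 47 CPM in members, 38.7, 2.2 and 15.4 CPM in the other *Pdgfra* cells and 163, 11.4 and 122 CPM in free RNA, with *Mgp*-KO lowest in each. *Notch3*, a receptor of mural cells, was at 19.9, 12.2 and 45.9 CPM in members. Of the smooth muscle and pericyte list, 3 of 5 tested genes were at least 2-fold higher in Pd-KO than in *Mgp*-KO members, beside 2.14% of all genes. The median log2 ratio of the list was -0.35 in cells called female and 1.04 in cells called male, while *Rgs5* was at 4.65 and 5.77. *Acta2* and *Tagln* were not among the 3 higher genes, at 207, 94.4 and 63.6 and 175, 65.5 and 52.7 CPM. The part of free RNA in these values was not tested.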
